A study of Homo sapiens with 6 samples.

Results

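The 10 genes described here are Notch pathway genes: the receptor genes NOTCH1, NOTCH2 and NOTCH3, the ligand genes JAG1, JAG2 and DLL1, the nuclear factor genes RBPJ and MAML1, and the target genes HES1 and HEY1. They were taken by gene name from a table of 33539 genes, and all 10 were found. The cells were 8505C, an established line of anaplastic thyroid cancer, which is an undifferentiated thyroid carcinoma. 3 libraries came from siPOLR1F cells, treated with siRNA to silence POLR1F (a subunit of RNA polymerase I, which transcribes ribosomal RNA genes), and 3 from NC cells, labelled si NC and taken as the control; all libraries carry a time of 24 h. All cells grew in the same serum-containing medium. The siRNA sequences are not stated in the labels, nor whether the number that follows each name marks a repeat or another siRNA; it was read as a repeat.

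Notch is a signalling route between touching cells. A ligand of the Jagged or Delta family on one cell binds a Notch receptor on its neighbour, proteases then cut the receptor, and its intracellular part moves to the nucleus. There it joins the DNA-binding protein RBPJ and a Mastermind-like coactivator, and genes of the HES and HEY families of transcriptional repressors are switched on. RNA levels of receptors and ligands do not measure receptor cleavage, and in bulk RNA fewer cells of a type and less RNA per cell cannot be told apart.

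The libraries held between 60576788 and 63038378 counts. POLR1F had 575, 395 and 413 counts in siPOLR1F libraries, against 2446, 2246 and 2095 in NC libraries, which is a log2 change of -2.30 with an SE of 0.15 (adjusted p by edgeR 9.76e-05). The thyroid lineage markers matched the label in part. NKX2-1, a lung and thyroid transcription factor, was at 27.5 ± 1.62 FPKM in siPOLR1F and 45.2 ± 3.02 FPKM in NC libraries (SD, n = 3 each), PAX8 averaged 0.491 FPKM in siPOLR1F and 0.543 FPKM in NC libraries, and TG, TSHR, SLC5A5 and FOXE1 stayed below 0.5 FPKM in each library. FPKM corrects a count for the length of the gene and the size of the library. The summed level of 4 epithelial markers was 226.0 to 256.3 FPKM in siPOLR1F and 265.8 to 298.3 FPKM in NC libraries. Nearly all of this was from the keratin genes KRT8 (mean 98.0 FPKM in siPOLR1F and 117 FPKM in NC libraries) and KRT18 (146 and 162 FPKM). EPCAM averaged only 0.638 FPKM in siPOLR1F and 0.762 FPKM in NC libraries, and CDH1 was at or below 0.051 FPKM in every library. Of 5 endothelial markers CDH5 alone averaged 0.5 FPKM or more, and the summed level of the 5 was 2.52 to 5.37 FPKM in siPOLR1F libraries and 5.80 to 7.18 FPKM in NC libraries. The summed level of 3 leukocyte markers was 3.11 to 4.67 FPKM in siPOLR1F and 3.66 to 4.79 FPKM in NC libraries, and that of 5 fibroblast and mural markers was 1.56 to 1.92 FPKM in siPOLR1F and 1.78 to 2.17 FPKM in NC libraries; PTPRC was at or below 0.0091 FPKM in every library. CDH5, of endothelial junctions, was lower, at 2.72 ± 0.671 FPKM in siPOLR1F and 5.65 ± 0.223 FPKM in NC libraries (SD, n = 3 each; edgeR adjusted p = 0.00308). The part of these markers in the results on Notch genes was not tested.

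Of the 10 members, NOTCH1 alone passed the test, and it was higher in siPOLR1F cells. The other 8 tested members did not pass, and DLL1 lay below the minimum level set for the test. Genes with a mean of at least 0.5 FPKM were tested with edgeR's quasi-likelihood test, with p-values adjusted over all 13564 of them, and an adjusted p below 0.05 was called. Of all tested genes, 17.2% were called, 10.3% as higher and 6.94% as lower. None of the 9 tested members was called lower by edgeR, DESeq2 or limma, and none was lower at an unadjusted p below 0.05 by any of the 3 tools. At that threshold 2 members were higher by edgeR, 2 by DESeq2 and 1 by limma. The share of all tested genes past that threshold was not counted, here or for the lists below, so that these counts stand without a baseline. The median log2 fold change of the 9 was 0.14, beside -0.01 for all tested genes, and the median size of the change regardless of sign was 0.14, beside 0.17 for all tested genes.

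**Figure D1:**
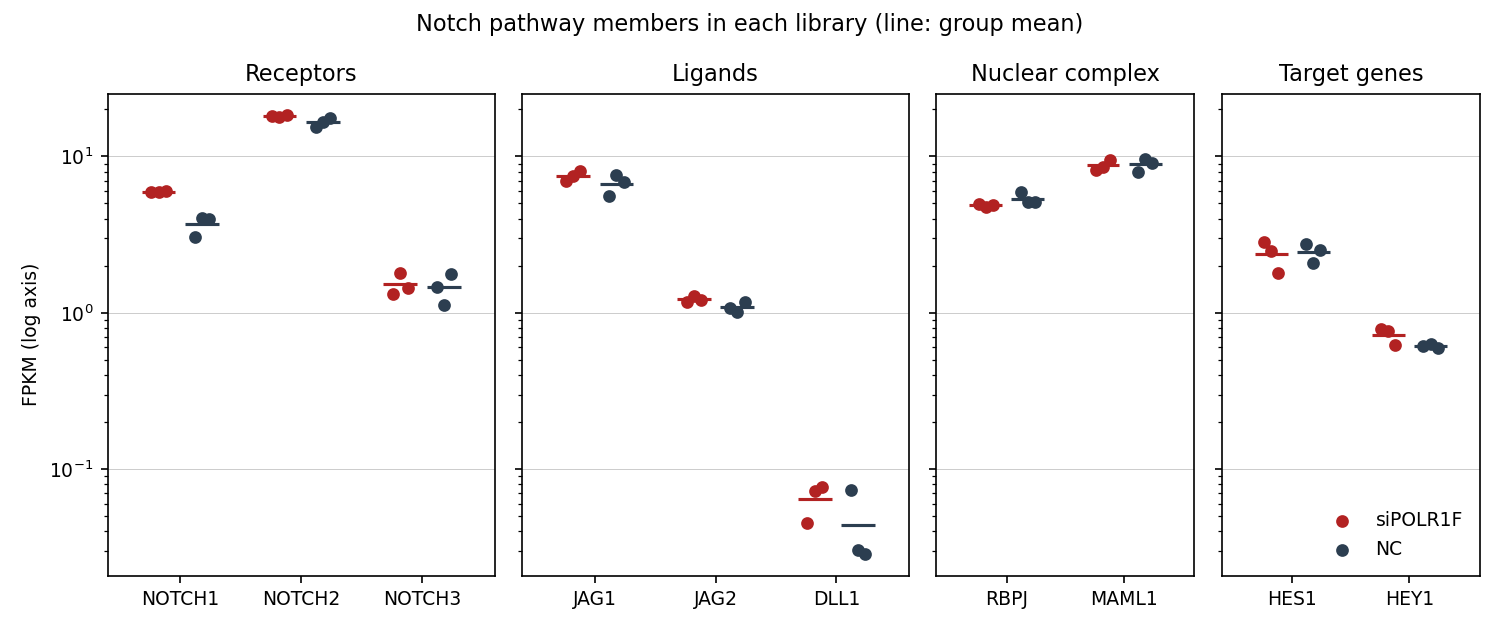
FPKM of the 10 members (log axis) in each of 3 siPOLR1F (red) and 3 NC (dark) libraries, grouped by role; points are libraries and short lines are group means. The NOTCH1 points of the groups are apart, at 5.89 to 6.05 FPKM in siPOLR1F and 3.06 to 4.04 FPKM in NC libraries, while the groups lie at similar levels in the other panels.

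The receptors differed in level. NOTCH1 (ENSG00000148400; GRCh38 chromosome 9, 136494433 to 136546048, minus strand) encodes a receptor with roles in stem cells and in many cancers. It was at 5.95, 5.89 and 6.05 FPKM in siPOLR1F libraries, against 3.06, 4.04 and 3.98 FPKM in NC libraries, from 5176, 5192 and 5267 counts against 2704, 3422 and 3468 counts. Every siPOLR1F library lay above every NC library, the siPOLR1F values were within a narrow range, and NC replicate 1 was the lowest. The log2 fold change was 0.70 (SE 0.10; 95% interval 0.47 to 0.93; edgeR adjusted p = 0.00308), a level 1.62 times that of NC cells with an interval of 1.39 to 1.90. An exact permutation test, two-sided, gave p = 0.1, and no smaller value is possible with 3 libraries in each group. The call held in each alternative run: over 15 other settings the log2 fold change was 0.58 to 0.77 and the adjusted p (edgeR, DESeq2 or limma) 2.87e-10 to 0.0270. Without NC replicate 1 the log2 fold change was 0.58. Transcripts that overlap NOTCH1 held under 1 count on average.

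NOTCH2 (ENSG00000134250; chromosome 1, 119911553 to 120069662, minus strand), a close relative of NOTCH1, was the most abundant member in every library. It was at 18.01, 17.9 and 18.3 FPKM in siPOLR1F libraries, against 15.4, 16.6 and 17.6 FPKM in NC libraries. The groups did not overlap, as was the case for 4 of the 9 tested members (with NOTCH1, JAG2 and RBPJ) and for 37.9% of all tested genes, and the difference was small, at 0.14 on the log2 scale (95% interval 0.01 to 0.26). It reached an unadjusted p of 0.0329 and an adjusted p of 0.117 in edgeR, and without NC replicate 1 the change was 0.09. The table also lists the NOTCH2NL genes, near copies of part of NOTCH2, with mean counts from 140.2 (NOTCH2NLR) to 1410 (NOTCH2NLA) per library beside 18147 to 21240 for NOTCH2. NOTCH2NLC had 179, 392 and 365 counts in siPOLR1F libraries, against 798, 693 and 468 in NC libraries, and NOTCH2NLR 69, 130 and 123 counts in siPOLR1F libraries, against 192, 169 and 158 in NC libraries, so that both were lower in every siPOLR1F library, unlike NOTCH2. The groups overlapped for NOTCH2NLA, with 1535, 1460 and 1109 counts in siPOLR1F libraries, against 1420, 1440 and 1493 in NC libraries. They also overlapped for NOTCH2NLB, with 546, 460 and 462 counts in siPOLR1F libraries, against 787, 471 and 720 in NC libraries. NOTCH2 and the 4 copies summed to 23234, 23573 and 23299 counts in siPOLR1F libraries, against 21344, 21513 and 23255 in NC libraries, and these raw sums overlapped. With library size and edgeR's TMM scaling factors, the sums were 377.2, 372.8 and 375.6 CPM in siPOLR1F libraries, against 339.0, 353.6 and 371.1 CPM in NC libraries. CPM are counts corrected for library size, and here for these factors too. The gap was narrow and rested on the factors. By library size alone the groups overlapped: siPOLR1F replicate 3 (23299 of 62933468 counts) lay below NC replicate 3 (23255 of 62385310 counts). How reads with several matches were counted is not given in the sources used here, so the split between NOTCH2 and these copies is uncertain.

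NOTCH3 (ENSG00000074181; chromosome 19, 15159038 to 15200995, minus strand), best known from vascular smooth muscle, had 1.32, 1.81 and 1.43 FPKM in siPOLR1F libraries and 1.47, 1.12 and 1.76 FPKM in NC libraries. The groups overlapped throughout. Its log2 fold change was 0.07 with a 95% interval of -0.32 to 0.47 (edgeR adjusted p = 0.806), so levels from 0.800 to 1.39 times that of NC cells were within the error. Its sign turned without siPOLR1F replicate 2 or NC replicate 2, and it was 0.23 without NC replicate 3. NOTCH4, the receptor of vascular endothelium, did not reach 0.5 FPKM on average, with 0.0856, 0.126 and 0.0367 FPKM in siPOLR1F libraries and 0.116, 0.159 and 0.172 FPKM in NC libraries.

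NOTCH1 took a larger share of the receptor RNA in every siPOLR1F library than in any NC library, a difference that the exact test cannot call with 3 libraries a group. It made up 23.5%, 23.0% and 23.5% of the summed FPKM of NOTCH1, NOTCH2 and NOTCH3 in siPOLR1F libraries, against 15.4%, 18.6% and 17.1% in NC libraries. NOTCH2 made up 70.0% to 71.2% in siPOLR1F and 75.4% to 77.3% in NC libraries. The mean NOTCH1 share was larger in siPOLR1F libraries by 6.32 percentage points on average (exact permutation test, two-sided, p = 0.1), and by 5.49 to 7.11 points when any library was left out. The NOTCH3 share was 5.24% to 7.05% in siPOLR1F and 5.17% to 7.56% in NC libraries, with overlap. The summed receptor level was 25.6 ± 0.254 FPKM in siPOLR1F and 21.6 ± 1.69 FPKM in NC libraries (SD, n = 3 each).

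**Figure D2:**
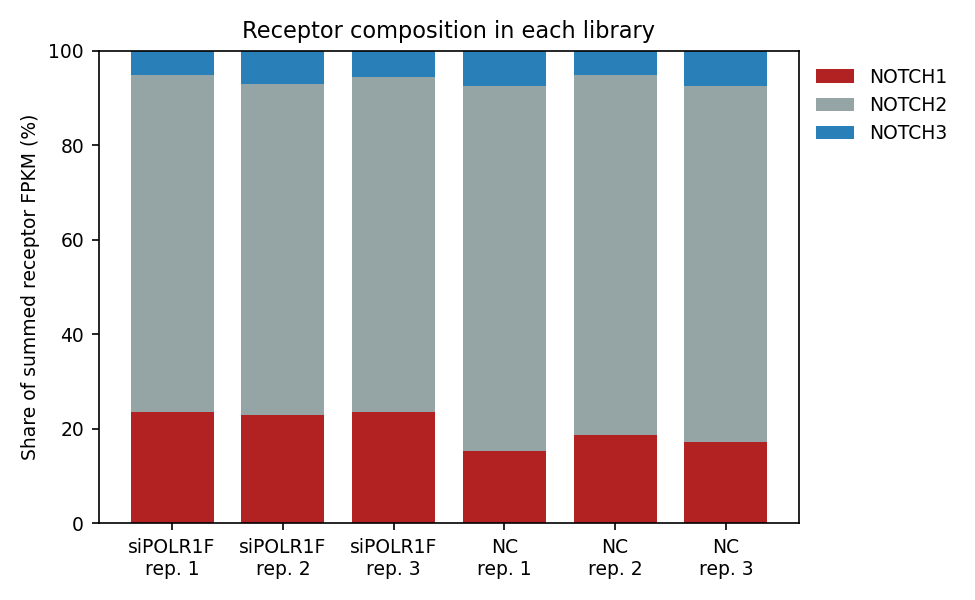
Share (%) of NOTCH1, NOTCH2 and NOTCH3 in their summed FPKM, 1 bar per library, siPOLR1F at the left and NC at the right. The NOTCH1 part is 23.0% to 23.5% in siPOLR1F and 15.4% to 18.6% in NC libraries, and NOTCH2 is the largest part of each bar.

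A pair of heptamers was searched in the coding sequence and 3′ UTR of the members, because an earlier scan of these same data had linked them to the fold changes. Of 11274 tested genes searched, TCGGAGA occurred in 9.57%, of which 27.2% were called higher, against 10.2% of genes without it. CCGACTT occurred in 6.47%, of which 15.6% were called lower, against 7.29% of genes without it. Genes with CCGACTT were called higher in 10.7%, against 11.9% of those without it. Because the heptamers were picked from these same data, these shares are a description and no test. Transcript length was not taken into account. None of the 9 members searched held the heptamer with the larger share of higher calls. The other, with the larger share of lower calls, occurred in the coding sequence of NOTCH1, which rose, and of NOTCH3, which did not pass the test, and in no other member searched. The sites are given 5′ to 3′ from GENCODE release 29 (GRCh38), with the heptamer in capitals and the surrounding bases in lower case.
NOTCH1, from base 5732 of the coding sequence: cgtcatctCCGACTTcatctacc
NOTCH3, from base 4586 of the coding sequence: ttccagcgCCGACTTtctgcagc
The part of such sites in the change of NOTCH1 was not tested, and a match is only a match of letters.

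The ligands were less abundant than NOTCH2, and none of them was called. JAG1 (ENSG00000101384; chromosome 20, 10637684 to 10673999, minus strand), a Jagged ligand, was at 6.95, 7.53 and 8.11 FPKM in siPOLR1F libraries, against 5.58, 7.65 and 6.85 FPKM in NC libraries. The groups overlapped, and NC replicate 1 was again the lowest. On the log2 scale the change was 0.18, with a 95% interval of -0.07 to 0.43 (edgeR adjusted p = 0.299). It was 0.06 without NC replicate 1 and 0.28 without NC replicate 2.

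JAG2 (ENSG00000184916; chromosome 14, 105140982 to 105168824, minus strand), the other Jagged ligand, was at 1.18, 1.28 and 1.21 FPKM in siPOLR1F libraries, against 1.07, 1.01 and 1.18 FPKM in NC libraries. The groups touched without overlapping. Its log2 fold change was 0.17, with a 95% interval of -0.10 to 0.44 (edgeR adjusted p = 0.354). JAG1 made up 84.8% to 86.3% of the summed FPKM of the 3 ligands in siPOLR1F libraries and 82.9% to 88.0% in NC libraries.

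DLL1 (ENSG00000198719; chromosome 6, 170282206 to 170306565, minus strand), a Delta-like ligand, had 13, 20 and 21 counts in siPOLR1F libraries, against 20, 8 and 8 counts in NC libraries. These counts overlapped, and at 0.0288 to 0.0766 FPKM the gene lay below the minimum for the test. In the settings that kept it, its log2 fold change was 0.59 with no filter on low values (edgeR adjusted p = 0.560) and 0.61 with edgeR's own filter (edgeR adjusted p = 0.568), so it did not pass in either. It also overlaps FAM120B on the other strand, which had 2679 counts on average, and the strand setting of the counting is not given in the sources used here. Of the other ligands, DLL4 was between 0 and 0.0424 FPKM in all libraries. DLL3, a ligand family member that acts within the cell, averaged 1.01 FPKM in siPOLR1F and 1.10 FPKM in NC libraries (log2 fold change -0.11; edgeR adjusted p = 0.693). That change was -0.04 without siPOLR1F replicate 3, -0.06 without NC replicate 1 and -0.18 without NC replicate 3. In the list of other receptors and ligands 2 of 5 genes were tested, and neither was called by edgeR, DESeq2 or limma or had an unadjusted p below 0.05.

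The nuclear factors moved little. RBPJ (ENSG00000168214; chromosome 4, 26163455 to 26435131, plus strand) encodes the DNA-binding protein to which the receptor fragment attaches; without that fragment it represses its targets. It was at 4.98, 4.76 and 4.86 FPKM in siPOLR1F libraries, against 5.88, 5.13 and 5.09 FPKM in NC libraries. All siPOLR1F values were below all NC values, and NC replicate 1 was the highest. In edgeR the log2 fold change was -0.13 with a 95% interval of -0.30 to 0.03 (edgeR adjusted p = 0.229). Without NC replicate 1 it was -0.06.

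MAML1 (ENSG00000161021; chromosome 5, 179732822 to 179777283, plus strand), the Mastermind-like coactivator, was at 8.23, 8.62 and 9.53 FPKM in siPOLR1F libraries, against 7.91, 9.62 and 9.11 FPKM in NC libraries. The groups overlapped. A log2 fold change of -0.0068 was obtained, with a 95% interval of -0.21 to 0.19 (edgeR adjusted p = 0.969), and its sign changed in 6 of 15 other settings.

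The target genes were not called. HES1 (ENSG00000114315; chromosome 3, 194136148 to 194138732, plus strand), the best known Notch target and a repressor of differentiation genes, was at 2.82, 2.48 and 1.78 FPKM in siPOLR1F libraries, against 2.74, 2.09 and 2.54 FPKM in NC libraries. siPOLR1F replicate 3 was the lowest of all, while the other siPOLR1F libraries lay within or above the NC range. The log2 fold change was -0.04, with a 95% interval of -0.50 to 0.41 that covers levels from 0.706 to 1.33 times that of NC cells (edgeR adjusted p = 0.907). Without siPOLR1F replicate 3 the log2 fold change was 0.12, and without NC replicate 1 it was 0.04.

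The promoter of HES1 is shown because this gene is the textbook target of RBPJ, and its RNA was not called while that of NOTCH1 was. The window runs from 250 bases before to 50 bases after the start of the gene (chr3:194135898-194136197, plus strand, GRCh38.p14, from RefSeq), in lower case with the core RBPJ motif GTGGGAA in capitals.
HES1: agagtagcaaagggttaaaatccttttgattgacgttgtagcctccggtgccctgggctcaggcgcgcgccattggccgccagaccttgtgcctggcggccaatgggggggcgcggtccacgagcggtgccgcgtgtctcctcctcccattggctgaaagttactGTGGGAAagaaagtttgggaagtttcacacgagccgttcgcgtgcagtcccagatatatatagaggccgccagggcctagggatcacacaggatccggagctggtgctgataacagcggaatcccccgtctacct
GTGGGAA was searched on both strands. Only this exact string was searched, so RBPJ sites with other letters, in HES1 or in other members, would be missed and stay in lower case. It begins 85 bases before the start of HES1. Promoter windows of 8 of the 10 members were searched, 12 windows in all. Those of DLL1 and of the target gene HEY1 were not searched. Among the members searched, only HES1 and RBPJ held the motif, RBPJ in 1 of its 5 windows (chr4:26319496-26319795), on both strands. That window surrounds an alternative start inside RBPJ, 156291 bases after the first base of the gene. Of all 35116 promoter windows, 6.25% held it. No match in the windows of NOTCH1, NOTCH2, NOTCH3, JAG1, JAG2 and MAML1 says only that these letters are absent there.
RBPJ, 115 bases before this alternative start: taggaaatTTCCCACggccgtgt
RBPJ, 73 bases before this alternative start: ggaaggcgGTGGGAAggaggtgt

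HEY1 (ENSG00000164683; chromosome 8, 79762371 to 79767857, minus strand), a repressor related to HES1, was low, with 302, 296 and 240 counts in siPOLR1F libraries, against 240, 236 and 230 counts in NC libraries. In FPKM it was at 0.785, 0.761 and 0.626 in siPOLR1F libraries, against 0.611, 0.632 and 0.597 in NC libraries. The first 2 siPOLR1F replicates lay above all NC libraries and the third within their range. For HEY1 the log2 fold change was 0.24, with a 95% interval of -0.11 to 0.60 (edgeR adjusted p = 0.319).

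In order of FPKM, NOTCH2 led in both groups, followed by MAML1 and JAG1. In siPOLR1F cells NOTCH1 came next, above RBPJ, and in NC cells RBPJ came next, above NOTCH1, in both cases with no overlap between these 2 genes. HES1, NOTCH3, JAG2, HEY1 and DLL1 followed in both groups. Neighbours whose values overlapped were HES1 and NOTCH3 in siPOLR1F libraries, and JAG1 and RBPJ, and NOTCH3 and JAG2, in NC libraries.

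**Figure D3:**
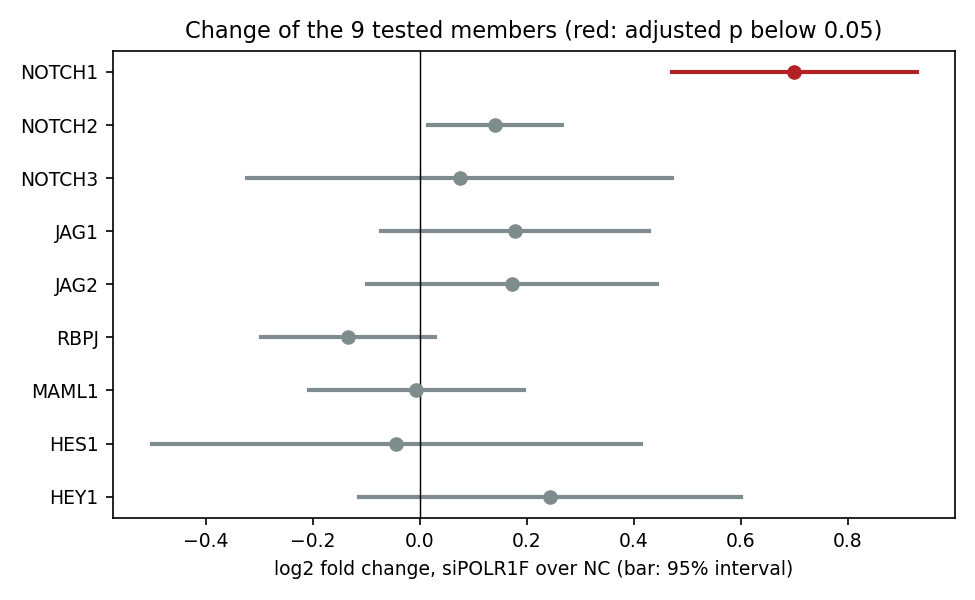
Log2 fold change (siPOLR1F over NC) of the 9 tested members with 95% intervals from edgeR; red marks an adjusted p below 0.05. NOTCH1 at 0.70 has an interval clear of 0, that of NOTCH2 begins at 0.01, and those of the other 7 include 0.

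Beyond the 10 members, 60 further genes of the pathway were looked up in 7 lists by role; 59 were in the table and 47 were tested, of which 8 were higher and 1 was lower by edgeR. DESeq2 called 11 of them higher and 1 lower, and limma 5 higher and 2 lower. The edgeR counts compare with 10.3% of all tested genes called higher and 6.94% called lower. Over all genes, DESeq2 called 1781 of 12766 higher and 1345 lower, and limma 1194 of 13564 higher and 883 lower. The median log2 fold change of the 47 was 0.06, beside -0.01 for all tested genes. The calls fell in lists with unlike roles, including both activators and restrainers of the pathway. In the table's own annotation of the Notch signaling pathway, which names 51 genes and includes all 10 members, 40 were tested and 8 were called higher and none of them lower by edgeR. At an unadjusted p below 0.05 in edgeR, 12 of the 40 were higher and 1 was lower. The share of all tested genes past that threshold was not counted, so these counts stand without a baseline and no shift of the pathway is read from them. DESeq2 called 9 of the 40 higher and 1 lower, and limma 5 higher and none of them lower.

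Among genes that mature and cut the receptor, 1 of 8 tested in the cleavage list and 1 of 3 tested in the glycosylation list rose, and none of these 11 fell by edgeR, DESeq2 or limma. At an unadjusted p below 0.05 none was lower by edgeR, while DESeq2 and limma each had 1 lower in the cleavage list. At that threshold edgeR had 2 higher in the cleavage list and 1 in the glycosylation list. POFUT1, which adds fucose to the receptor's extracellular repeats, was at 38.2, 39.1 and 41.8 FPKM in siPOLR1F libraries, against 30.3, 32.8 and 33.0 FPKM in NC libraries (log2 fold change 0.32; SE 0.06; edgeR adjusted p = 0.00741). FURIN, the protease of the first cut in the secretory pathway, was at 29.7, 30.1 and 31.9 FPKM in siPOLR1F libraries, against 23.3, 26.6 and 27.7 FPKM in NC libraries (log2 fold change 0.25; SE 0.07; edgeR adjusted p = 0.0426). The groups were apart for both genes. The call of FURIN was lost without any library but NC replicate 3 (edgeR adjusted p 0.0623 to 0.140) and with limma (0.0630), within a range of 0.00738 to 0.153 over all settings. The metalloprotease genes ADAM10 (log2 fold change -0.20; edgeR adjusted p = 0.164) and ADAM17 (0.13; 0.172) and the tested gamma-secretase subunit genes did not pass; ADAM10 and ADAM17 are named after their values were seen.

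Of 9 tested ubiquitin ligases and trafficking factors, 2 rose and none of the 9 fell by edgeR, DESeq2 or limma, nor was any lower at an unadjusted p below 0.05. At that threshold 2 were higher by each tool. FBXW7, the ubiquitin ligase component that marks the intracellular receptor fragment for breakdown, was at 1.99, 1.81 and 1.89 FPKM in siPOLR1F libraries, against 1.15, 1.25 and 1.32 FPKM in NC libraries (log2 fold change 0.62; SE 0.09; edgeR adjusted p = 0.00269). NUMB, an adaptor that restrains Notch receptors at the membrane, was at 10.6, 10.3 and 10.6 FPKM in siPOLR1F libraries, against 8.72, 8.65 and 8.89 FPKM in NC libraries (log2 fold change 0.27; SE 0.05; edgeR adjusted p = 0.0088). For both genes every siPOLR1F library was above every NC library, and the calls held in all 15 other settings.

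Of 7 tested coactivators of the nuclear complex 2 rose by edgeR, and of 11 tested corepressors 2 rose. None of these 18 fell by edgeR, DESeq2 or limma, nor was any lower at an unadjusted p below 0.05. At that threshold edgeR had 3 coactivators and 4 corepressors higher. HDAC1, a histone deacetylase found in repressor complexes, was at 39.5, 43.1 and 42.8 FPKM in siPOLR1F libraries, against 32.6, 32.6 and 32.2 FPKM in NC libraries (log2 fold change 0.37; SE 0.05; edgeR adjusted p = 0.00271). SNW1, which binds RBPJ and also acts in splicing, was at 56.2, 55.2 and 56.7 FPKM in siPOLR1F libraries, against 46.6, 47.2 and 46.1 FPKM in NC libraries (log2 fold change 0.27; SE 0.05; edgeR adjusted p = 0.00741). The groups were apart for both genes and both calls held in all 15 other settings, but SNW1 overlaps SLIRP on the other strand, and the strand setting is not stated. CREBBP, a histone acetyltransferase, was at 6.15, 5.73 and 6.69 FPKM in siPOLR1F libraries, against 3.93, 5.33 and 4.93 FPKM in NC libraries, and rose by 0.40 on the log2 scale (edgeR adjusted p = 0.0392). CREBBP lost its call in 9 of 15 other settings. Among them were limma (adjusted p 0.0639) and the removal of any library but NC replicate 2 (edgeR adjusted p 0.0542 to 0.130). Over all settings the adjusted p (edgeR, DESeq2 or limma) was 0.00168 to 0.165.

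Of 7 tested genes in the list of other HES, HEY and Notch-induced genes, 1 fell and none of the 7 rose by edgeR. At an unadjusted p below 0.05 in edgeR, 1 was higher and 2 were lower. DESeq2 called 1 higher and 1 lower, and limma called none of them higher and 2 lower. HES4, a HES family repressor, was at 3.35, 3.07 and 2.89 FPKM in siPOLR1F libraries, against 4.07, 4.41 and 4.85 FPKM in NC libraries. All siPOLR1F values were below all NC values. The log2 fold change was -0.50 (SE 0.15) and its edgeR adjusted p of 0.0499 was at the threshold; the call was lost in 10 of 15 other settings, among them the removal of any library (0.0721 to 0.143; 0.0136 to 0.143 over all settings). HES6, named here with its values known, did not pass, at -0.41 on the log2 scale (edgeR adjusted p = 0.0817). NRARP, a feedback inhibitor induced by Notch and also chosen after its value was seen, was at 0.05 (edgeR adjusted p = 0.850).

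**Figure D4:**
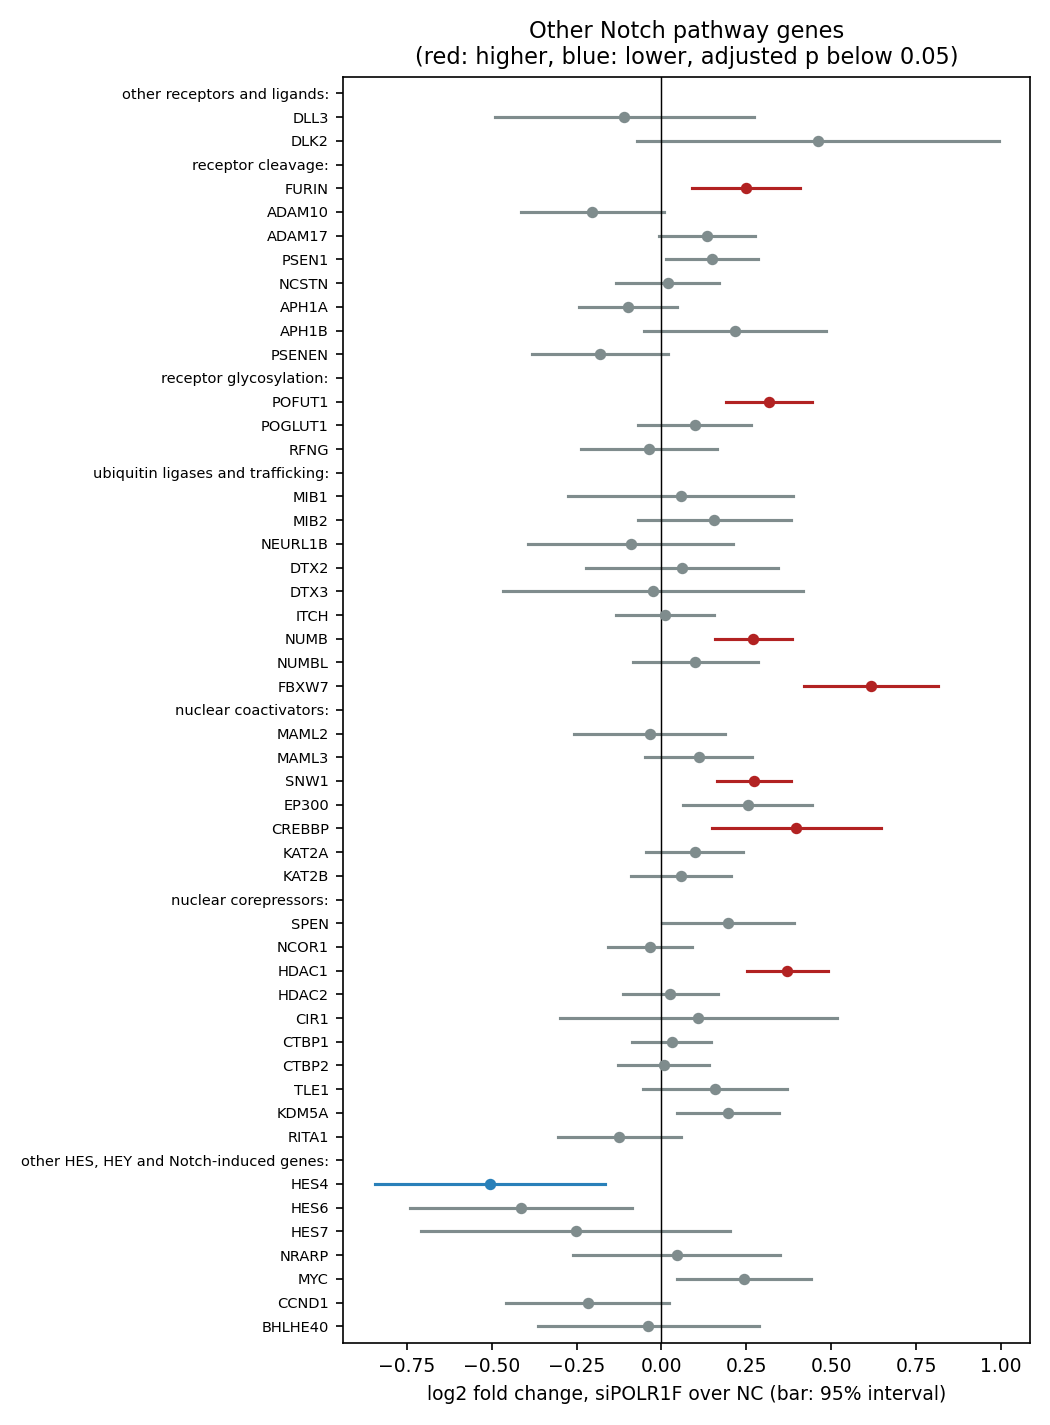
Log2 fold change (siPOLR1F over NC) with 95% intervals for 46 tested genes of the 7 lists, in order of role; red marks 7 genes called higher and blue 1 called lower. FBXW7 at 0.62 has the largest change among the called genes, and HES4 at -0.50 is the only called gene below 0.

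Over the 6 libraries, the genes whose pattern was closest to that of NOTCH1 were YRDC, ZHX2 and TBC1D10B, out of 11663 genes with a mean of at least 1 FPKM. Closeness was the root mean square difference of log2(CPM + 1) after centring each gene; it was 0.04 for YRDC and 0.05 for ZHX2 and TBC1D10B. YRDC, an enzyme of transfer RNA modification, averaged 38.4 FPKM in siPOLR1F and 24.2 FPKM in NC libraries (log2 fold change 0.67; edgeR adjusted p = 0.00416). ZHX2, a zinc finger and homeobox protein gene, averaged 1.97 FPKM in siPOLR1F and 1.17 FPKM in NC libraries (log2 fold change 0.75; edgeR adjusted p = 0.00803), and TBC1D10B, which acts on Rab GTPases, 9.11 FPKM in siPOLR1F and 5.46 FPKM in NC libraries (log2 fold change 0.75; edgeR adjusted p = 7.75e-04). As for NOTCH1, NC replicate 1 was the lowest library for each. YRDC overlaps C1orf122 on the other strand, with 1562 counts on average. These genes were picked for likeness in the same libraries, so that their changes are a description.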

How the data were processed

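Poly(A) RNA of 8505C cells was sequenced as paired reads, per the labels' protocols. The submitters' processing notes name fastp, HISAT2 and StringTie with GRCh38; no version, annotation release, strandedness or rule for multiply mapped reads is stated there. The authors deposited a table of whole-number counts and FPKM values (counts scaled by gene length and library size) per gene and library. Counts were tested as deposited, rows were matched by gene name, and 0 value columns were left unmatched.

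Genes with a mean of at least 0.5 FPKM (99.4% of counts) were tested with edgeR 4.0.16 (TMM, glmQLFit, glmQLFTest; R 4.3.3), two-sided, without a block, with Benjamini-Hochberg adjustment over all of them. SEs are the log2 fold change divided by the square root of F, and intervals use the fit's degrees of freedom. The code was also run on simulated counts with the same dispersion (spread between libraries) for every gene. Real genes differ in this spread, so that run cannot vouch for the calls here. Alternatives were DESeq2 1.42.0, limma 3.58.1 on log2(FPKM + 1) and log2(FPKM + 0.1), other scalings and filters, a replicate block, and fits that drop 1 library; the receptor share without each library was added after the data were seen. The rule for named genes took all members, POLR1F, up to 3 called genes per list (or the most abundant) and the 3 genes closest to NOTCH1; 1 gene that the rule took is counted but not reported here by name or value. Members and lists were chosen with earlier results of these data known. Separate cultures are not stated in the labels, so the p-values reflect only the variation among these libraries, possibly technical. No replicate pair agreed within sampling noise (chi-square over degrees of freedom 15.3 to 29.6). Gene positions are those of the deposited table.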

Additional observations from a re-analysis of the deposited data

How the results depend on the processing

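NOTCH1 was the 1 member called higher, and 0 members were called lower, in each of the 15 other settings. Over all genes, 1391 higher and 942 lower calls became 663 and 313 with no filter on low values. Leaving out 1 library gave 730 to 1326 higher and 423 to 841 lower calls; counts moved by over 1.5 times without siPOLR1F replicate 1 (813), 2 (898) or 3 (730) or NC replicate 3 (877). Values near 0 changed sign: NOTCH3 to -0.063 without siPOLR1F replicate 2 and -0.077 without NC replicate 2 (range -0.077 to 0.23 over left-out libraries); HES1 to 0.12 without siPOLR1F replicate 3 and 0.042 without NC replicate 1 (range -0.20 to 0.12); and MAML1 to 0.0042 with no filter, 0.020 with edgeR's filter, and 0.034, 0.011, 0.055 and 0.0081 without siPOLR1F replicate 1 or 2 or NC replicate 2 or 3 (range -0.085 to 0.055). None of these passed the test, and the cause was not tested. With the replicate block, 1517 genes were higher and 1125 lower, the members' calls were the same, and HES4 was lost (edgeR adjusted p = 0.0725). To look for pairing, each library's log2(CPM + 1) was taken as a difference from the mean of its own group, gene by gene. These differences, not the expression levels, were correlated between groups. They cancel out within a group, so that some negative values are built in. Same-numbered libraries had correlations of 0.35, -0.05 and 0.25, and siPOLR1F replicate 2 correlated best with NC replicate 3 (0.12). The correlation was -0.35 for siPOLR1F replicate 1 with NC replicate 3, and -0.31 for siPOLR1F replicate 3 with NC replicate 1. Whether the numbers pair the samples is not stated in the labels and was not settled by these values. At 230 to 404 counts a library, HES1 and HEY1 allow only coarse intervals; DLL1, at 8 to 21 counts, was tested in the 2 settings with no filter and with edgeR's filter. On log2(FPKM + 1), which understates changes of low genes, limma gave 0.04 for NOTCH3, 0.09 for JAG2 and HEY1, -0.06 for DLL3, 0.37 for FBXW7 and 0.45 for ZHX2.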
